A study of Mus musculus with 4 samples.

Results

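Natural killer (NK) cells were studied in 2 single-cell RNA libraries of CD45+ immune cells sorted from tumour-bearing mouse brains, 1 library from vehicle-treated and 1 from SCDi-treated mice. A barcode was kept with at least 300 genes detected and at most 15% of its UMIs mitochondrial, where a UMI (unique molecular identifier) stands for 1 captured transcript. A kept barcode was called an NK cell when at least 3 of Ncr1, Klrb1c, Klra4, Klra8, Klre1, Eomes and Styk1 had a UMI, Cd3d, Cd3e and Cd3g together had at most 1, and Csf1r, Cd68, Itgam and Adgre1 together had fewer than 5. The rule found 326 NK cells among 13412 kept immune barcodes, 175 in the vehicle and 151 in the SCDi library. The values of these genes chose the cells, so members were selected on measured expression and these genes are given as a description only.

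NK cells are innate lymphocytes that kill stressed or transformed cells by releasing perforin and granzymes onto them, and that secrete interferon gamma and chemokines. Whether they fire is set by the balance of activating receptors, such as NKp46 (Ncr1) and NKG2D (Klrk1), against inhibitory receptors that read class I molecules, among them the Ly49 family and CD94-NKG2A (Klrd1 with Klrc1). CD8 T cells share much of the killing machinery but recognise their targets through a rearranged T cell receptor, which makes them a natural reference for what is peculiar to NK cells.

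The series asks what inhibition of SCD, stearoyl-CoA desaturase, an enzyme that makes monounsaturated fatty acids, does to tumour cells and to anti-tumour immunity in models of breast cancer brain metastasis. Both groups were immunocompetent female C57BL/6 mice that had received an intracranial implant of EO771 cells, a mouse mammary carcinoma line, here expressing GFP. They were given vehicle or SCDi for 14 days, and the brains of 3 mice per group were pooled before sorting of live CD45+ GFP- cells, so each group is 1 library. The sources used here do not give the compound behind the name SCDi, its dose, the age of the mice, or whether blood was flushed from the brain. No brain without a tumour was in the design, and the tumour was placed in the brain rather than having spread there. With 1 library per group no test between treatments or cell types could be made, and no p-value is given. Intervals are 95% intervals of the counts and cover counting error only, not the spread between mice. Those of log2 ratios are of UMIs summed over cells and also leave out the spread between cells.

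The NK cells of the vehicle library held 1670098 UMIs and those of the SCDi library 1204956, with a median of 7121 and 6415 per cell and 2637 and 2486 genes. CD8 T cells were gated in the same libraries by a UMI of Cd8a or Cd8b1, at least 2 UMIs of Cd3d, Cd3e and Cd3g, none of Cd4 and the same limit on myeloid genes. There were 56 of them in vehicle and 60 in SCDi, with deeper medians of 10091.5 and 12515.5 UMIs. The immune libraries shared 14 barcodes. No barcode was an NK cell in both, and 1 NK barcode was also present in the other library.

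A median of 5 of the 7 gate genes had a UMI per NK cell in each library. Ncr1, which encodes the activating receptor NKp46, was at 389 CPM in vehicle and 544 in SCDi, where CPM is counts per 1000000 UMIs of the class and library. Klrb1c, the gene of NK1.1, was at 742 and 871 CPM, and Klre1, a lectin-like receptor, at 580.2 and 617 CPM. Styk1, a kinase-like NK gene, was at 429 and 434 CPM, and the T-box factor Eomes at 141 and 120.3 CPM with a UMI in 90 and 78 cells. The Ly49 genes Klra4 and Klra8 were the patchiest, with a UMI in 84 and 86 of the 175 vehicle cells and 75 and 81 of the 151 SCDi cells. Of the 7, Ncr1 differed most between the libraries, with a log2 ratio of SCDi to vehicle of 0.48 (0.32 to 0.64), and none reached 1.5-fold.

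The edges of the gate were not clean everywhere. Cells that just passed with 3 gate genes (31 in vehicle, 16 in SCDi) had 6329 and 931 CPM of Gzma, the granzyme A gene. Cells that just missed with 2 (17 and 14) had 1723 and 710.1 CPM of Gzma and 2464 and 8545 CPM of Cd74, a gene of class II antigen presentation. A total of 16 vehicle and 10 SCDi barcodes met the other terms but had 2 or more Cd3 UMIs. Their level of the T cell receptor gene Trac was 256 and 292 CPM, against 11.1 and 12.8 in NK cells with none. The myeloid limit mattered most for numbers: 129 vehicle and 150 SCDi barcodes met the other terms with 5 or more myeloid UMIs. They were deep, with medians of 28537 and 35903.5 UMIs, carried 2650.3 and 2776 CPM of the macrophage complement gene C1qa, and were left out. They also had 2817 and 1872 CPM of Gzma. Those with exactly 5 myeloid UMIs (6 in vehicle, 3 in SCDi) had 18822 and 3736 CPM of Gzma and 546 and 619 of C1qa. The limit thus also left out barcodes rich in Gzma. Of its 4 genes only Itgam reached 50 CPM in NK cells of either library, and the limit caps its counts.

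Markers of other immune cells ranged from absent to a summed 1321 CPM in the gated cells. Of 10 markers of type 2 and type 3 innate lymphoid cells, 9 were at 0 in vehicle and all 10 in SCDi, and 5 of 6 epithelial tumour markers were at 0 in both. Foxp3, Cd6 and Themis, which mark T cell lineages, were at 0 in both libraries, while all 12 T cell markers outside the gate summed to 978 and 1014 CPM against 4685 and 4267 in CD8 T cells. The 6 B cell markers summed to 5.99 and 1.66 CPM, and the 12 macrophage markers to 1198 and 1032 CPM, against 25429 and 26126 CPM in myeloid barcodes and 580 and 428 CPM in CD8 T cells. The macrophage genes C1qb and C1qc were past 1.5-fold higher in SCDi NK cells, with log2 ratios of 0.63 and 0.62, and free RNA as a source of them was not tested. Their direction was the opposite, at -0.25 and -0.53, when each cell was thinned to 5000 UMIs before gating. That setting called 143 vehicle and 117 SCDi NK cells, and in it deep cells pass the myeloid limit more easily. It also leaves out every barcode under 5000 UMIs, among them 43 of the 175 vehicle and 45 of the 151 SCDi NK cells. Dendritic cell markers differed between the libraries, at 1321 CPM in vehicle and 232 in SCDi, against 12415 and 10969 in myeloid barcodes. A pair of vehicle cells held 1152 and 553 of that library's 2105 class II UMIs, and 6 vehicle cells with 10 or more held 1776. In SCDi 1 cell reached 10. Class II genes are given below with and without such cells.

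NK cells made up 2.51% (2.16 to 2.91) of kept immune barcodes in vehicle and 2.34% (1.99 to 2.74) in SCDi. The difference was -0.17 percentage points with an interval of -0.70 to 0.35. The pool of NK and CD8 T cells was 75.8% NK (69.7 to 81.1) in the vehicle library. In the SCDi library the NK share of the pool was 71.6% (65.0 to 77.5), -4.19 points away (-12.4 to 3.99). With CD4 T and B cells added to the denominator, the NK share was 33.7% (29.7 to 38.0) without and 36.7% (32.1 to 41.6) with the drug, or 3.02 points apart (-3.13 to 9.20). All 3 intervals include 0, but they cover the counting of cells only, and 1 pooled library per group gives no test of NK abundance. Shares of sorted barcodes do not give the number of NK cells per brain.

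The NK transcriptome outside the gate genes was set against that of CD8 T cells first, by summing UMIs over all cells of a class and library. Fcer1g and Tyrobp, which encode the signalling adaptors FcRγ and DAP12 of activating NK receptors, separated the classes widely. Tyrobp was at 1593 CPM in vehicle and 1785 in SCDi NK cells, and at 75.6 and 36.5 in CD8 T cells, a log2 ratio of 4.39 (4.05 to 4.77) in vehicle and 5.59 (5.18 to 6.08) in SCDi. Fcer1g was at 1897 and 2277 CPM in NK cells against 132 and 182. Il2rb, the receptor chain through which NK cells receive interleukin 15, was at 1090.4 and 1089 CPM against 313 and 399. The kinase gene Txk was at 974 and 998 CPM against 340.4 and 228. Irf8, a factor of NK maturation, was at 847 and 867 CPM against 80.1 and 135. These 5 genes were higher in NK cells in both libraries and differed between treatments by less than 1.5-fold within NK cells.

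At 2-fold or more, with genes at 50 CPM or more in either class, 10.4% of 3933 genes were higher in NK than in CD8 T cells in vehicle and 5.31% lower. In SCDi 13.7% of 3971 were higher and 9.57% lower, and in both libraries 7.86% of 3626 were higher and 3.59% lower. Of 20 NK identity genes outside the gate, 18 could be measured in vehicle, all 18 were higher in NK cells and 14 passed 2-fold, 3 of the 18 being measured through NK cells alone, with a median log2 ratio of 1.80 against 0.10 over all genes. In SCDi 18 of 19 were higher and 15 passed 2-fold, 6 of the 19 being measured through NK cells alone, with a median of 2.04 against 0.13. Fewer CD8 T cells than NK cells stand behind these ratios, and several of their sums rest on single cells, as given below.

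**Figure D1:**
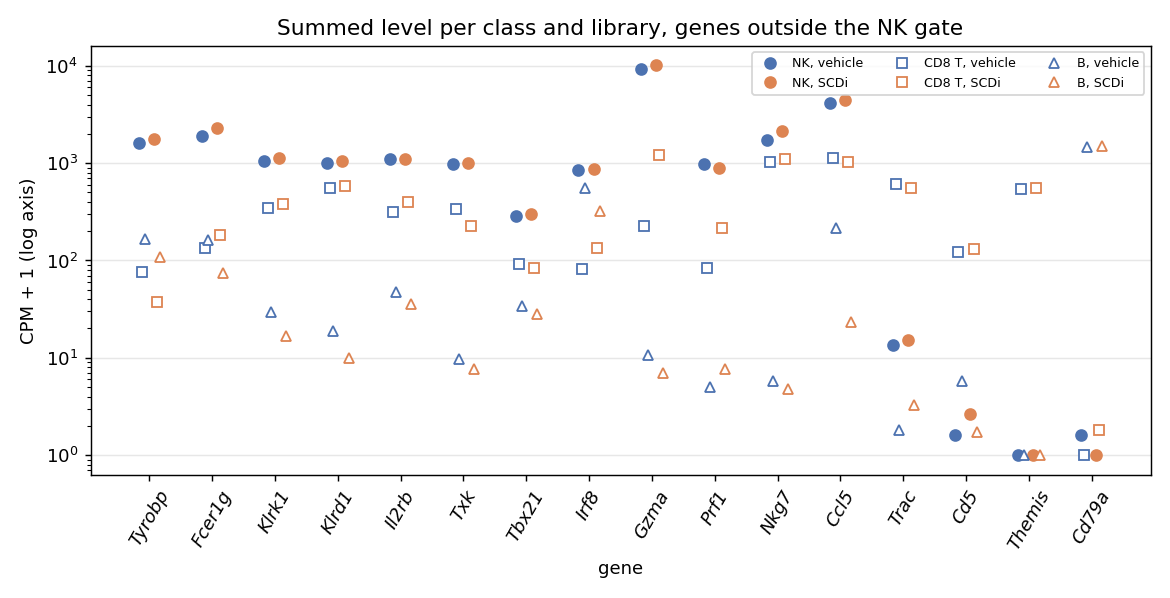
Level of 16 genes in NK cells (filled circles), CD8 T cells (squares) and B cells (triangles), as CPM plus 1 on a log axis, with vehicle in blue and SCDi in orange. NK points of Tyrobp and Fcer1g lie above 1500 CPM in both libraries, while Cd5 and Themis are at or near 0 in NK cells and above 100 CPM in CD8 T cells.

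The 12 genes furthest above CD8 T cells by the bound of the count interval had varied functions. Tyrobp and Klra9 were among them, as was Gzmc, whose log2 ratios of 6.86 and 4.08 were -0.60 and -3.24 without the NK cells of 5 or more Gzmc UMIs described below. Klrb1b, which encodes an inhibitory receptor of the NKR-P1 family, was at 631 and 574 CPM in NK cells and 1.11 and 3.32 CPM in CD8 T cells. Klri2 and Klrb1f, lectin-like receptor genes of the same gene complex, had log2 ratios of 6.54 and 5.28 in vehicle and 6.18 and 6.87 in SCDi. Sh2d1b1, the adaptor EAT-2 that works downstream of SLAM receptors, was at 62.3 and 73.0 CPM in NK cells with no UMI in CD8 T cells. Against a limit of 3 counts over the CD8 T cells, that is at least 18.7-fold higher in vehicle and 29.3-fold in SCDi. The transcriptional cofactor gene Eya1 (128 and 88.0 CPM) and the growth factor gene Vegfc (66.5 and 77.2 CPM) also had no UMI in CD8 T cells, which puts Eya1 at least 38.2- and 35.3-fold and Vegfc at least 19.9- and 31.0-fold higher. Klf12, a zinc finger factor, had log2 ratios of 6.03 and 5.87, and Aoah, a lipase that inactivates bacterial endotoxin, 7.41 and 4.74. Sulf2, a heparan sulfate sulfatase, was at 89.8 and 78.8 CPM with 1 and 0 UMIs in CD8 T cells.

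In the other direction stood T cell genes. Themis, needed for thymic selection, had no UMI in the 326 NK cells and 538 and 553 CPM in CD8 T cells, at least 299.8-fold and 222-fold lower in NK cells. Cd6, a T cell co-receptor, had none either, and Cd5, its relative, had 1 UMI in vehicle and 2 in SCDi. Bcl11b, the factor that fixes T cell fate, had log2 ratios of -4.92 and -5.60. Il7r, the interleukin 7 receptor of T cells and most innate lymphoid cells, was at 44.3 and 29.0 CPM in NK cells against 404 and 286. Trdc, the constant segment of the T cell receptor delta chain, went the opposite way, with 67 and 62 UMIs in 43 and 38 NK cells and 0 and 1 UMIs in CD8 T cells.

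Ly49 receptors were set against treatment next. Over all genes at 50 CPM or more in either library, 1.97% of 3751 were at least 1.5-fold higher in SCDi NK cells. Another 3.57% were at least 1.5-fold lower, and the median log2 ratio was -0.02. By direction alone, 1728 of the 3751 were higher in SCDi and 2023 lower. Of the 3751, 208 reached 50 CPM in SCDi alone and 303 in vehicle alone. Among the 3240 at 50 CPM or more in both libraries, 21 were past the fold upward and 52 downward. Of 8 Ly49 genes outside the gate, 4 were measured at that level. Klra9 was at 229 CPM in vehicle and 329 in SCDi, a log2 ratio of 0.52 (0.31 to 0.73). Klra7 was at 468 and 403 CPM, Klra3 at 112 and 135, and Klra1 at 115 and 89.6. None passed 1.5-fold. Of the last 500 bases of the Klra9 transcript, where this 3′ assay reads, 36.5% of 50-base words are shared with a relative, and of Klra3 22.5%, so how their UMIs were divided between relatives is uncertain.

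Each Ly49 gene is switched on in only part of the NK cells, so the number per cell was also counted. Over 6 of them (Klra1, Klra3, Klra4, Klra7, Klra8 and Klra9, the gate genes Klra4 and Klra8 among them), the median cell had a UMI of 2 in vehicle and 3 in SCDi. Vehicle cells had 3 or more in 45.1% (37.6 to 52.8) of cases and SCDi cells in 55.0% (46.7 to 63.1). Once each cell was thinned to 2000 UMIs, which left out 13 vehicle and 11 SCDi cells, the shares were 30.2% (23.3 to 37.9) and 35.7% (27.8 to 44.2), with a median of 2 in both. Cells with none of the 6 were 13.7% and 12.6% of all cells. Klra4 and Klra8 helped to admit the cells, so the 4 genes outside the gate were also counted alone. With these, 36.0% (28.9 to 43.6) of vehicle and 43.7% (35.7 to 52.0) of SCDi cells had 2 or more, or 26.5% and 27.9% once thinned. The intervals of the libraries overlapped at every number from 0 to 6, but overlap does not show that the shares are alike. At exactly 3 of the 6 genes they were 25.7% (19.4 to 32.9) and 39.1% (31.2 to 47.3), or 21.0% and 27.1% once thinned. No interval of these differences was computed.

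**Figure D2:**
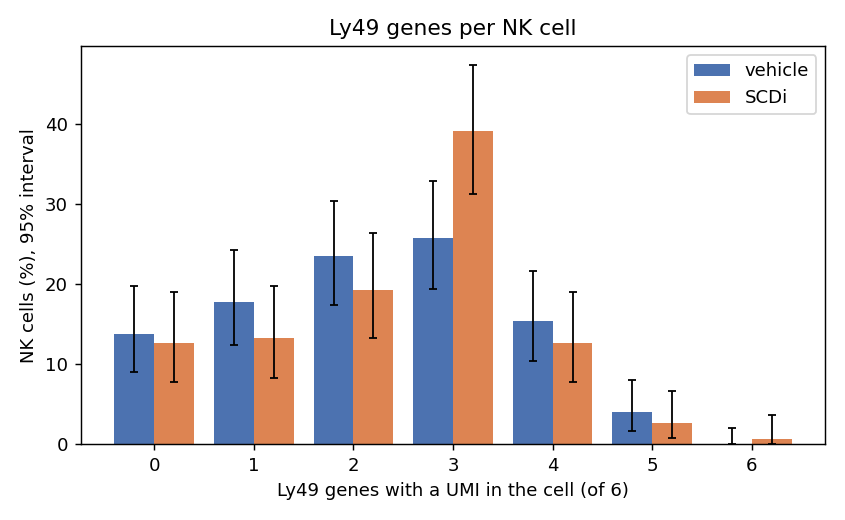
Share of NK cells, in percent, by the number of 6 Ly49 genes with a UMI in the cell, with 95% intervals of the counts, vehicle in blue and SCDi in orange. Bars at exactly 3 genes stand at 25.7% in vehicle and 39.1% in SCDi, and those at 0 genes at 13.7% and 12.6%.

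The lectin receptors outside the Ly49 family were steadier still. Klrd1 (CD94) was at 1006 CPM in vehicle and 1045 in SCDi, Klrc1 (NKG2A, inhibitory) at 250.3 and 271, Klrc2 (NKG2C, activating) at 260.5 and 243, and Klrk1 (NKG2D) at 1047 and 1129.5. All 8 measured genes of this list stayed within 1.5-fold between libraries, 4 of them higher in SCDi. Against CD8 T cells all 8 were higher in both libraries and 6 passed 2-fold, but 4 reached 50 CPM in NK cells alone. Klrd1 and Klrc1 were the members below 2-fold, with log2 ratios of 0.85 and 0.44 in vehicle. Of 20 measured adaptor and proximal signalling genes, none was 1.5-fold higher in SCDi NK cells and 1 was lower.

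The killing programme was strongly expressed in both libraries. Gzma was at 9376 CPM in vehicle and 10087 in SCDi NK cells, with a UMI in 87.4% and 88.7% of cells. In B cells, which should lack it and had median depths of 6722 and 6068 UMIs, a Gzma UMI was found in 7.69% and 7.27%. At 2000 UMIs per cell the NK shares were 82.7% and 85.0%. Prf1, the gene of perforin, was at 986 and 888 CPM, a log2 ratio of -0.15 (-0.26 to -0.04), which was 0.17 without the cells rich in Gzmc that are described below. Gzmb was at 3799 and 4507 CPM, a log2 ratio of 0.25. That ratio was -0.01 when the highest cell of each library was left out, 1 SCDi cell having 1324 of 5431 Gzmb UMIs. None of these 3 genes passed 1.5-fold between treatments.

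Other genes of the cytotoxic machinery were mostly a little higher in SCDi NK cells without passing the fold. Nkg7, a granule membrane gene needed for degranulation, was at 1712 and 2119.6 CPM, a log2 ratio of 0.31. Fasl, the death ligand, was at 173 and 239.8 CPM (0.47, 0.23 to 0.71). Serpinb9, which protects killer cells from their own granzyme B, was at 880.2 and 1103 CPM (0.33). Ctsw, a granule protease, had a log2 ratio of 0.31, while Srgn, the proteoglycan core of granules, had -0.18 and Serpinb6b, another protease inhibitor, -0.15. Of 17 measured genes of the cytotoxic list, 10 were higher in SCDi, with a median log2 ratio of 0.25, or -0.06 with gates on thinned UMIs. A single gene passed 1.5-fold upward, Gzmf, and a single gene downward, Gzmd, both described below with the granzyme cluster.

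CD8 T cells were read beside them. In CD8 T cells 9.71% of 3697 genes were at least 1.5-fold higher in SCDi and 11.7% lower. These are several times the shares in NK cells, with fewer cells behind each sum. By direction alone 1761 of the 3697 were higher. Among the 2929 at 50 CPM or more in both libraries, 189 were past the fold upward and 221 downward. Gzma was at 226 CPM in vehicle and 1222 in SCDi CD8 T cells and Gzmb at 1085 and 3823. A single SCDi CD8 T cell held 694 of 1472 Gzma UMIs, and 1 held 1475 of 4604 of Gzmb. The NK to CD8 log2 ratio of Gzma was 5.37 in vehicle and 3.04 in SCDi, and that of Gzmb 1.81 and 0.24. For Prf1 it was 3.55 and 2.04, with 83.4 and 216 CPM in CD8 T cells. NK levels of these genes were thus close in the 2 libraries while those of CD8 T cells were higher in SCDi. Of 18 measured cytotoxic genes, 11 were at least 2-fold higher in NK than CD8 T cells in each library, where 5 in vehicle and 3 in SCDi reached 50 CPM in NK cells alone, and 1 was at least 2-fold lower. Gzmk, a granzyme of T cells, was that gene in both, at 5.99 and 0.83 CPM in NK cells against 71.2 and 107.

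**Figure D3:**
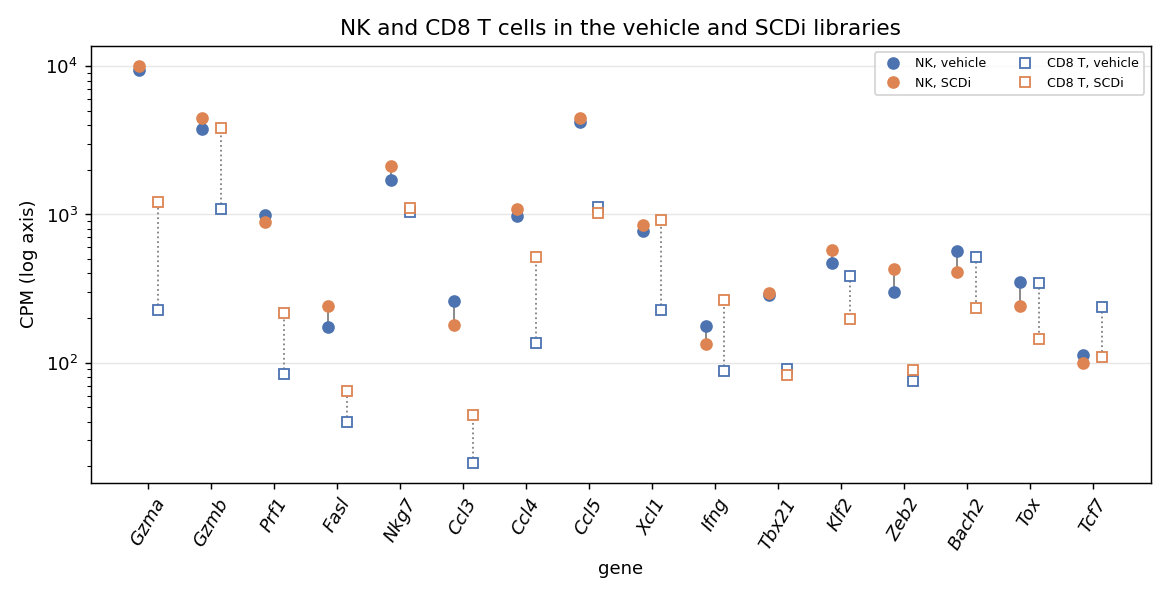
Level of 16 effector and transcription factor genes in NK cells (circles) and CD8 T cells (squares), as CPM on a log axis, with a line joining vehicle (blue) and SCDi (orange) of a class. NK lines are short for Gzma, Prf1 and Ccl5, while CD8 T cells go from 226 to 1222 CPM for Gzma and from 226 to 923 for Xcl1.

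Among secreted factors, the chemokines Ccl5, Ccl4 and Ccl3, which attract other immune cells, were all NK-rich. Ccl5 was at 4187 CPM in vehicle and 4495 in SCDi NK cells and at 1121 and 1022 in CD8 T cells. Ccl4 was at 977 and 1086 CPM, against 136 and 517, with 1 SCDi CD8 T cell holding 402 of 623 UMIs. Its NK to CD8 log2 ratio in vehicle was -0.39 with gates on thinned UMIs. Ccl3 was at 260.5 and 179 CPM in NK cells, a log2 ratio of -0.54 (-0.78 to -0.30), and at 21.1 and 44.0 in CD8 T cells. Xcl1, which recruits cross-presenting dendritic cells, was at 773 and 852 CPM in NK cells. In CD8 T cells it was at 226 and 923 CPM, 703 of the 1112 SCDi UMIs being in 1 cell. Ifng, interferon gamma, was at 177 and 134 CPM in NK cells (-0.40, -0.69 to -0.12) and at 87.9 and 263 in CD8 T cells. The NK to CD8 log2 ratio of Ifng was 1.00 in vehicle and -0.98 in SCDi, so the order of the classes differed between the libraries. None of 8 measured cytokine genes passed 1.5-fold in NK cells, where 1.97% of all genes did upward and 3.57% downward. In CD8 T cells 3 of 6 passed it upward, where 9.71% of all genes did. Of these 3, Ccl4 and Xcl1 had most of their SCDi UMIs in 1 cell, as given above. The difference between the classes was not tested.

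Of the homing receptors, 1 passed the fold in NK cells. Ccr2, the receptor for monocyte chemoattractants, was at 349 CPM in vehicle NK cells and 232 in SCDi, and fell by 0.59 on the log2 scale (-0.80 to -0.38). It had a UMI in 66.9% (59.4 to 73.8) of vehicle and 52.3% (44.0 to 60.5) of SCDi NK cells, and at 2000 UMIs per cell in 39.5% and 28.6%. The B cell shares were 9.4% and 7.27%, and 2.65% and 0.962% when thinned. In CD8 T cells Ccr2 rose from 52.3 to 107 CPM, a log2 ratio of 1.03 (0.54 to 1.55). The NK ratio was -0.24 with gates on thinned UMIs and past 1.5-fold in 10 of 18 alternative settings, all of the same direction. Ccr2 was the single member of 10 measured homing genes past the fold in NK cells. In CD8 T cells 3 of 11 homing genes at 50 CPM or more in both libraries were past it downward and 1 upward. Over all 2929 genes at that level in both, 221 and 189 were. Another 4 homing genes reached that level in vehicle CD8 T cells alone.

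Il2ra, the high-affinity interleukin 2 receptor chain, fell from 55.1 to 13.3 CPM, a log2 ratio of -2.02 (-2.92 to -1.28), with a UMI in 26 vehicle and 10 SCDi cells. Without the Gzmc-rich cells the ratio was -1.26, the smallest over 18 alternatives. It was the only one of 17 measured cytokine receptor genes past the fold, and reached 50 CPM in vehicle alone. Il12rb2, the interleukin 12 receptor chain, was at 484 and 624 CPM (0.37), and Il18r1 and Il18rap, which form the interleukin 18 receptor, had log2 ratios of 0.10 and 0.00. Ctla4, an inhibitory receptor best known on T cells, fell from 135 to 68.1 CPM (-0.98) with a UMI in 51 and 20 cells. Nt5e (CD73), which makes adenosine, rose from 32.3 to 61.4 CPM (0.92), in 20 and 23 cells. It reached 50 CPM in SCDi alone. Lag3, Tigit, Cd96 and Pdcd1 had 36, 106, 122 and 7 UMIs in all vehicle NK cells and 41, 68, 68 and 19 in SCDi. These are raw counts out of 1670098 and 1204956 UMIs. As CPM, Tigit and Cd96 did not pass 1.5-fold, and Lag3 and Pdcd1 stayed under 50 in both libraries. Within SCDi NK cells, Lag3, Pdcd1 and Ctla4 reached 50 CPM in the Gzmc-rich cells alone.

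Transcription factors mostly stayed within the fold. Tbx21 (T-bet), which drives late NK maturation, was at 287 and 297 CPM in NK cells and 90.1 and 83.0 in CD8 T cells. Gata3 rose from 42.5 to 64.7 CPM (0.61, 0.12 to 1.09), the 1 of 21 measured factors past 1.5-fold, and past it in 11 of 18 alternative settings. It reached 50 CPM in SCDi alone, and none of the 20 factors at that level in both libraries passed the fold. Bach2, a repressor that holds lymphocytes in a less differentiated state, was at 563 and 407 CPM (-0.47), with a UMI in 88.0% and 68.9% of cells and, at 2000 UMIs per cell, 66.7% and 44.3%. Tox, needed for NK development, was at 351 and 242 CPM (-0.53), and Ets1, another developmental factor, at 598 and 464 (-0.37). Both Bach2 and Tox were also lower in SCDi CD8 T cells, by log2 ratios of -1.15 and -1.27. Klf2, which keeps lymphocytes circulating, was at 473 and 578 CPM in NK cells (0.29) but fell from 385 to 198 in CD8 T cells (-0.95).

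Genes of late NK maturation and of tissue residency leaned in opposite directions, while those of early maturation were split. Of 9 measured early maturation genes 4 were higher in SCDi NK cells and 5 lower, with a median log2 ratio of -0.02. Of the 8 at 50 CPM or more in both libraries 4 were higher. All 8 measured late maturation genes were higher in SCDi NK cells, with a median log2 ratio of 0.25 and none past 1.5-fold, Gzma and Gzmb among them. Their median was 0.04 when the highest cell of each gene was left out. The largest was Zeb2, a factor of terminal maturation, at 302 and 427 CPM (0.50), but 1 SCDi cell held 195 of 514 UMIs and the ratio was -0.13 without each library's highest cell. Ly6c2, a surface marker of mature cells, was at 280.2 and 379 CPM (0.44). Of 9 measured residency genes, 8 were lower in SCDi, with a median of -0.39 that ran from -0.65 to -0.16 over the alternatives, and 1, Il2ra, which reached 50 CPM in vehicle alone, was past the fold. Itga1 (CD49a), an integrin of resident cells, was at 79.6 and 57.3 CPM (-0.47), Cd69, which blocks egress, at 112 and 79.7 (-0.49), and the oxysterol receptor gene Gpr183 at 92.8 and 65.6 (-0.50). Over all genes, 1728 of 3751 were higher in SCDi NK cells and 2023 lower. Counts of direction over lists this short are a description of these libraries.

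**Figure D4:**
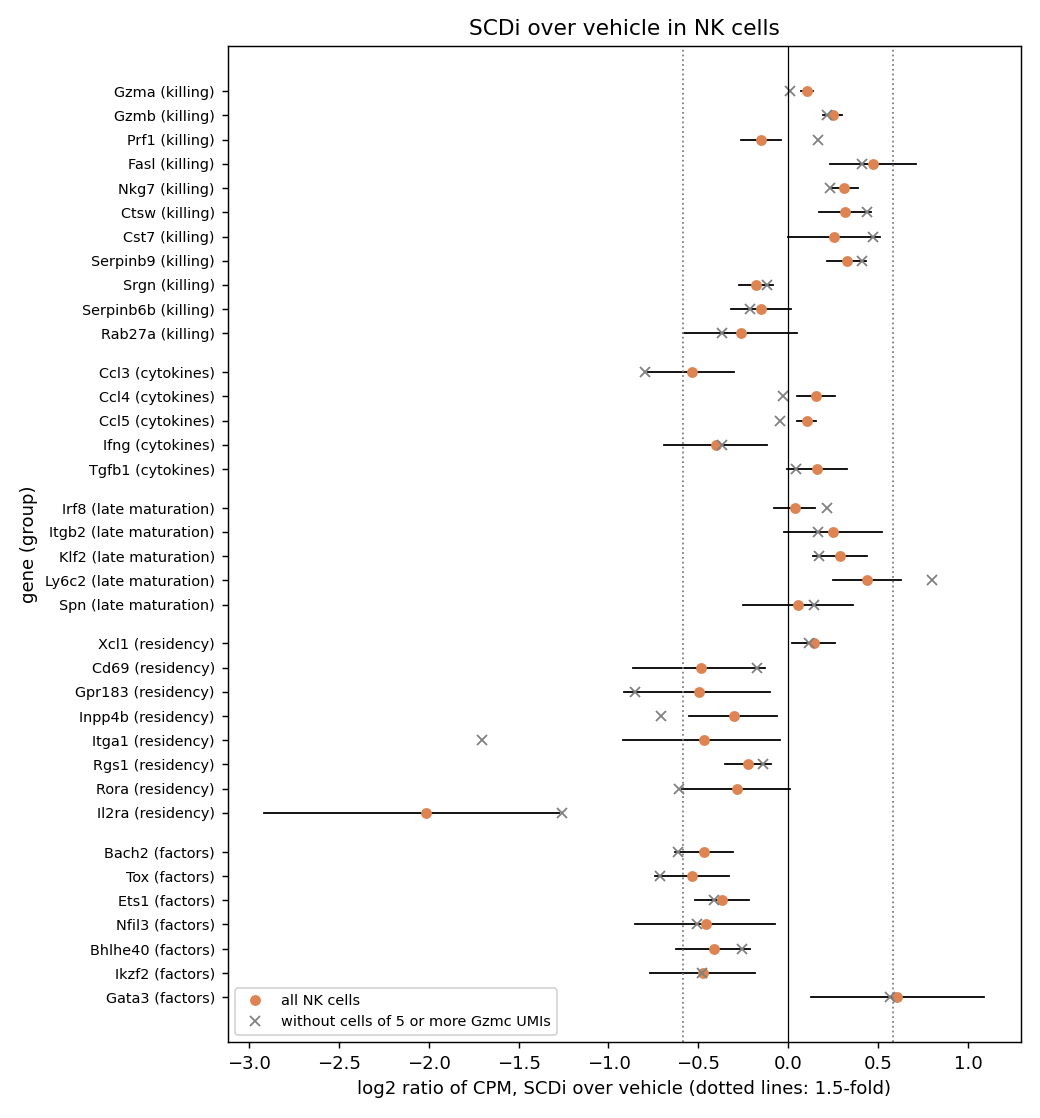
Log2 ratio of SCDi to vehicle in NK cells for genes of killing, cytokines, late maturation, residency and transcription factors, with 95% intervals of the counts; crosses give the ratio without cells of 5 or more Gzmc UMIs and dotted lines mark 1.5-fold. Il2ra, which reached 50 CPM in vehicle alone, and Gata3, which did so in SCDi alone, lie past the dotted lines. Prf1 lies at -0.15 with and 0.17 without the Gzmc-rich cells.

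A small set of NK cells carried large amounts of Gzmc, the granzyme C gene. Most NK cells had none, 142 in vehicle and 130 in SCDi, while single cells reached 925 and 987 UMIs. Cells with 5 or more, a limit chosen after the values were seen, numbered 21 of 175 in vehicle (95% interval 7.58 to 17.8%) and 12 of 151 in SCDi (7.95%, 4.17 to 13.5). The difference was -4.05 points (-10.6 to 2.70). Near the limit lay 12 vehicle and 9 SCDi cells with 1 to 4 UMIs. The Gzmc-rich cells were deep, at a median of 20937 and 18791.5 UMIs against 6672.5 and 6159 in other NK cells, and held 29.8% and 22.3% of all NK UMIs. They are a range of 1 gene's counts, not a named cell type, and their genes are described here without a test.

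Compared with the other NK cells of their library, 5.01% of 3971 genes were at least 2-fold higher in the Gzmc-rich cells in vehicle and 12.4% lower. In SCDi 7.25% of 3987 were higher and 13.6% lower. Among genes at 50 CPM or more in both sets of cells, 1197 of 2925 were higher in vehicle, 82 of them past 2-fold. In SCDi 1230 of 2776 were higher, 78 of them past 2-fold. Ccl5 was far lower: 193 CPM against 5884 in vehicle and 301 against 5701 in SCDi, with a UMI in 6 of 21 and 9 of 12 cells. Xcl1 was the opposite, at 1669 against 392 CPM in vehicle and 2337 against 425 in SCDi, with a UMI in 19 of 21 and 12 of 12. Of the residency genes other than Gzmc, 7 were at 50 CPM or more in both sets of cells in vehicle, all 7 were higher in the Gzmc-rich cells and 4 passed 2-fold. In SCDi there were 4, all higher, and 3 passed. In each library 5 more reached that level in the Gzmc-rich cells alone, so they had to be higher. Itga1 was at 108 against 67.4 CPM in vehicle and 186 against 20.3 in SCDi, and Inpp4b, a lipid phosphatase, at 474 against 123 and 565 against 74.8. Itga2 (CD49b), the integrin of circulating NK cells, was lower, at 70.3 against 351 and 44.6 against 280.0 CPM.

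The gate admitted every cell by Ncr1, Eomes and their like, so the levels of these in the Gzmc-rich cells are a description only. Ncr1 was at 394 against 387 CPM in vehicle and 561 against 539 in SCDi. An Eomes UMI was found in 11 of 21 and 5 of 12 of them, and in 79 of 154 and 73 of 139 other NK cells, which were shallower. The Ly49 gene Klra9 was lower by log2 ratios of -3.66 and -3.15, and Zeb2 by -2.25 and -3.65. A UMI of Mki67 or Top2a, both genes of dividing cells, was found in 13 of 21 and 7 of 12, against 21 and 22 of the other cells. Genes of the G2 and M phase cannot be counted fairly here, since 14 of 16 measured in SCDi reached 50 CPM in the Gzmc-rich cells alone. Of immediate early genes at 50 CPM or more in both sets of cells, 2 of 12 were higher in the Gzmc-rich cells in vehicle and 0 of 10 in SCDi. The greater depth of these cells goes with these counts, and its part in them was not tested.

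**Figure D5:**
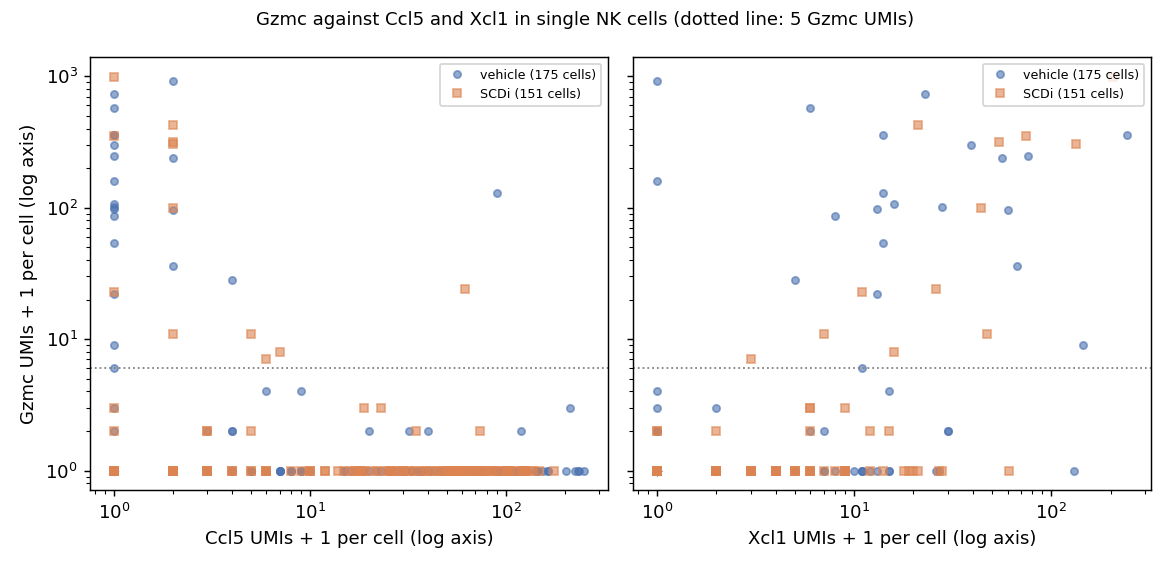
Gzmc UMIs plus 1 of each NK cell against its Ccl5 UMIs plus 1 and its Xcl1 UMIs plus 1, log axes, vehicle in blue and SCDi in orange, with a dotted line at 5 Gzmc UMIs. On or above the line 6 of 21 vehicle and 9 of 12 SCDi cells have a Ccl5 UMI, and 19 and 12 have an Xcl1 UMI.

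Gzmc lies in a cluster of granzyme genes on chromosome 14 with Gzmb, Gzmd, Gzme, Gzmf and Gzmg, and some Gzmc-rich cells expressed a neighbour at over 100 UMIs. The vehicle cell with 925 Gzmc UMIs had 941 of Gzmd, 377 of Gzme and 267 of Gzmg, and none of Gzmf. A second vehicle cell had 568 of Gzmc, 238 of Gzmd and 90 of Gzme. By contrast a vehicle cell with 353 Gzmc UMIs had 149 of Gzmf and none of the other 3, and an SCDi cell with 426 had 443 of Gzmf and 1 of Gzme. The SCDi cell with 987 had 259 of Gzmd, 267 of Gzme and none of Gzmf. The neighbours were thus read in Gzmd with Gzme, or in Gzmf, and the sums turn on a handful of cells: Gzmd had 1330 UMIs in vehicle and 272 in SCDi, Gzmf 233 and 686. Without cells that had a UMI of Mki67 or Top2a their log2 ratios of -1.82 and 2.03 became 2.88 and -1.21. In their last 500 bases 19.96% of the 50-base words of Gzmd occur in a relative, Gzme foremost, and 7.095% of those of Gzmf, so reads of Gzmd and Gzme cannot be fully told apart.

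The bases ahead of these genes are shown because these neighbours were found in the same few cells, while Gzmb had a UMI in 78.9% and 81.5% of NK cells. Each line gives 250 bases upstream of the gene's RefSeq start on the minus strand of GRCm38.p6, read 5′ to 3′, at chr14:56262335-56262584 for Gzmb, chr14:56234658-56234907 for Gzmc, chr14:56132594-56132843 for Gzmd and chr14:56211408-56211657 for Gzmf. Capitals mark matches to the RUNX motif TGTGGT or its reverse complement ACCACA, and in Gzmb also the AP-1 motif TGANTCA.
Gzmb: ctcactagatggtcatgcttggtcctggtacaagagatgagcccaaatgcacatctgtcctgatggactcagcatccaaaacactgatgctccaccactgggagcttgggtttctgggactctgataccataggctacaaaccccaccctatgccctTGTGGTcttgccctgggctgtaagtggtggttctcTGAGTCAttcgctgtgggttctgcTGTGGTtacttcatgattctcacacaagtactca
Gzmc: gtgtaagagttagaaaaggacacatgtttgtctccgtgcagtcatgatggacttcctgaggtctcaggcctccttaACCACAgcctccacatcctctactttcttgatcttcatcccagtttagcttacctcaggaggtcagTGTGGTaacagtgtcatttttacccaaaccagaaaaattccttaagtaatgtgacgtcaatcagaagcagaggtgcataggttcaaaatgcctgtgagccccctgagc
Gzmd: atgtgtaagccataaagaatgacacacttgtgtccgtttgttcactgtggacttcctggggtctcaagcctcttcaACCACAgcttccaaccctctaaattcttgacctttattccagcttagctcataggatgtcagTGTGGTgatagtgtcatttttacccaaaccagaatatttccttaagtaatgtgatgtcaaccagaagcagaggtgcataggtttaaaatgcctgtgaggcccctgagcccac
Gzmf: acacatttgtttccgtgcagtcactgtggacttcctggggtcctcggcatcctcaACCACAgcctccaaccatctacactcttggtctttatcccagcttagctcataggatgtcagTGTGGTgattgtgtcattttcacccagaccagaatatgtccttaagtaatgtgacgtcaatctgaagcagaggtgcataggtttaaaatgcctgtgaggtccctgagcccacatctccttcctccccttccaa
The Gzmc and Gzmd windows were identical at 82.4% of the 250 bases once aligned, Gzmd and Gzmf at 80.8%, and Gzmd and Gzme at 95.2%, whereas Gzmb and Gzmc were identical at 54.0%. Each of Gzmb to Gzmg had 2 RUNX matches, 168 and 102 bases ahead of the start in Gzmc and 87 and 28 in Gzmb. Gzma and Prf1, from other chromosomes, had 1 each. Of 32851 windows of this length, 14.0% hold the RUNX motif on either strand and 6.75% the AP-1 motif, which of these 8 genes was found in Gzmb alone. The T-box motif GGTGTGA and the STAT motif TTCNNNGAA, held by 3.33% and 7.02% of windows, were in none of the 8. These matches describe letters in a window, not binding.

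Genes named for a rise in SCDi NK cells by the lower bound of the interval included a pair linked to Notch signalling. Hes1, a Notch target repressor, rose from 34.1 to 72.2 CPM (57 and 87 UMIs), a log2 ratio of 1.08 (0.58 to 1.59). It had a UMI in 13.1% (8.52 to 19.1) of vehicle and 27.2% (20.2 to 35.0) of SCDi cells, and in 4.94% and 13.6% at 2000 UMIs. B cells had 7.69% and 18.2%, also higher in SCDi, and 1.77% and 7.69% when thinned. With gates on thinned UMIs the NK ratio of Hes1 was 0.076, the 1 of 18 alternatives in which it was not past the fold. Nrarp, a Notch-induced regulator, rose from 43.1 to 82.2 CPM (0.93, 0.48 to 1.39), with a UMI in 21.1% and 34.4% of cells, 6.79% and 16.4% when thinned, and at most 1.82% of B cells. In CD8 T cells Hes1 had 1 UMI in vehicle and none in SCDi, and Nrarp was at 5.56 and 8.3 CPM. No list of Notch genes was fixed, and these 2 were named by the size of their interval. Among NK cells both reached 50 CPM in SCDi alone.

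Others of the 12 named in this direction were spread over many functions. Of those with levels given here, Zfhx3, Cxcl10 and Plaur reached 50 CPM in SCDi NK cells alone. Levels of Lias, Cdk5rap3, Sike1, Ly86 and Plxdc2 are not given. Of all 74 genes past the fold upward, 21 were at 50 CPM or more in both libraries. Zfp53, a zinc finger gene, rose from 78.4 to 137 CPM (0.80) in 69 and 76 cells. Serpinb9b, a granzyme inhibitor family member, rose from 68.9 to 123 CPM (0.83), and Zfhx3, a homeobox factor, from 39.5 to 83.0 (1.07). Lias, the lipoic acid synthase, had a log2 ratio of 1.11, Cdk5rap3 1.00 and Sike1, an inhibitor of antiviral kinases, 0.94. Zfhx3 was at 0.36 with gates on thinned UMIs, while Zfp53, Serpinb9b, Lias, Cdk5rap3, Sike1 and Nrarp were past 1.5-fold in all 18 alternatives. These alternatives reuse the libraries in which the genes were named for their ratios, so they are no separate support. Cxcl10, an interferon-induced chemokine, rose from 48.5 to 134 CPM (1.46), but with a UMI in 38 vehicle and 35 SCDi cells and 1270.5 and 1280.0 CPM in myeloid barcodes. Plaur, the urokinase receptor, rose from 31.1 to 79.7 CPM and was at 559 and 486 in myeloid barcodes and 412 and 431 in B cells. The part of RNA from such cells in both values was not tested. Ly86 and Plxdc2 rested on 1 SCDi cell each: their ratios of 0.98 and 1.12 were 0.10 and 0.00 without the highest cells.

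In the other direction Il2ra, given above, was among the 12 named, and so was Ly6a, the gene of Sca-1, which interferons induce on lymphocytes. The Ly6a level was 653 CPM in vehicle NK cells and 277 in SCDi NK cells, a log2 ratio of -1.24 (-1.42 to -1.06), and -1.07 without the Gzmc-rich cells. A UMI was found in 53.1% and 35.1% of cells, and in 32.7% and 19.3% when thinned. B cells, which express it too, had 67.5% and 67.3%. The ratio was past 1.5-fold in 16 of 18 alternatives and -0.11 with gates on thinned UMIs. St6galnac3, a sialyltransferase, fell from 259 to 97.9 CPM (-1.40) in 44 and 24 cells, and also in CD8 T cells, from 205 to 102 CPM. Fabp5, which carries fatty acids inside cells, fell from 80.2 to 24.9 CPM (-1.67) in 56 and 25 cells. It reached 50 CPM in vehicle alone. With gates on thinned UMIs its ratio was -0.52. Its B cell shares were 35.9% and 27.3%, against 32.0% and 16.6% in NK cells.

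Another 8 of the 12 were Cd74, H2-Aa, H2-Ab1, H2-Eb1, Cd86, Slc8a1, Spp1 and Ccl8. Cd74 went from 544 to 88.0 CPM (-2.62), with 568 of 908 vehicle UMIs in 1 cell. H2-Aa, H2-Ab1 and H2-Eb1, which encode class II molecules, had ratios of -2.75, -2.55 and -2.47, and Cd86, a costimulatory ligand, -1.73. The 3 H2 genes reached 50 CPM in vehicle alone. With cells of 10 or more class II UMIs left out, none of the 5 was past the fold: Cd74 was at -0.077, H2-Aa at -0.23, H2-Ab1 at -0.15, H2-Eb1 at 0.13 and Cd86 at 0.17. Each was past it in 14 of 18 alternatives. Slc8a1, a sodium and calcium exchanger, had 97 of 126 vehicle UMIs in 1 cell. Spp1 (osteopontin) had a ratio of -1.32, which was 0.64 without the Gzmc-rich cells. Ccl8, at 1127 and 1221 CPM in myeloid barcodes, had 77.8 and 25.7 in NK cells.

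Genes around the drug's target enzyme were sparse in NK cells. Scd2 rose from 43.7 to 68.9 CPM (73 and 83 UMIs in 44 and 40 cells), a log2 ratio of 0.65 (0.18 to 1.13), and 0.33 with at most 1 myeloid UMI allowed per cell. Among NK cells Scd2 reached 50 CPM in SCDi alone. It was also higher in SCDi in CD8 T cells, at 34.5 and 75.6 CPM, in B cells, at 40.9 and 71.1, and in myeloid barcodes, at 22.2 and 35.0. Scd1 had 1 UMI in each library's NK cells, against 225 and 192 CPM in B cells. Scd3 had none and Scd4 1 in SCDi. Elovl6, which lengthens the substrate of the desaturases, was at 67.7 and 94.6 CPM (0.48), and Acaca, the first enzyme of fatty acid synthesis, at 59.9 and 49.8. Of 9 measured fatty acid synthesis genes, 4 were higher in SCDi and none passed 1.5-fold. Acly, Acaca and Acsl5 reached 50 CPM in vehicle alone and had to be lower. Of the 6 at that level in both libraries 4 were higher, where 1520 of 3240 genes of all kinds were. Of 25 cholesterol genes 1 reached the level for measurement.

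Stress genes were read in both cell types. Of 9 measured ATF4 and endoplasmic reticulum stress genes, 1 was higher in SCDi NK cells, none passed 1.5-fold and the median log2 ratio was -0.15, which became 0.12 when cells were gated on UMIs thinned to 5000. In CD8 T cells 189 of all 2929 genes at 50 CPM or more in both libraries were at least 1.5-fold higher. Of this stress list 8 genes were at that level in both libraries, and 7 of them were higher, 6 past the fold. Another 6 reached that level in SCDi alone and had to be higher. Hspa5, the chaperone BiP, was at 505 and 409 CPM in NK cells and at 421 and 502 in CD8 T cells. Hsp90b1, another chaperone of that compartment, was at 320.3 and 284 in NK cells, and rose from 248 to 433 in CD8 T cells (0.80, 0.58 to 1.04). Pdia6, a disulfide isomerase, was at 138 and 154 in NK cells and rose from 90.1 to 228 in CD8 T cells, where its highest SCDi cell had 42 of 274 UMIs. Of glycolysis genes 5 of 12 were higher in SCDi NK cells, with a median of -0.09, and 9 of 11 in SCDi CD8 T cells, with a median of 0.33. The difference between the cell types was not tested.

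Mitochondrially encoded genes were all higher in SCDi NK cells, 11 of 11 measured, where 1728 of 3751 genes of all kinds were. Their median log2 ratio was 0.17 (0.022 without cells above 3 times the median depth). The 2 past 1.5-fold were mt-Nd3 (234 and 384 CPM) and mt-Nd4l (42.5 and 79.7), the latter at 50 CPM in SCDi alone. Both encode subunits of respiratory complex I. The median share of mitochondrial UMIs per cell was 2.14% in vehicle and 2.27% in SCDi. mt-Nd3 also rose in CD8 T cells, by a log2 ratio of 0.67. Of 22 measured respiratory chain genes from the nucleus, 18 were higher in SCDi NK cells and none passed the fold, with a median of 0.11.

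A UMI of Mki67 or Top2a, genes of dividing cells, was found in 34 vehicle cells (19.4%) and 29 SCDi cells (19.2%), a difference of -0.22 points (-8.72 to 8.50). Thinned to 2000 UMIs the shares were 5.56% and 9.29%. In B cells of all depths they were 7.69% and 17.3%, close to the NK share in SCDi, so a share of dividing NK cells is not read from them. Against CD8 T cells the G2 and M phase list gives no fair count, since 17 of 19 genes measured in vehicle and 12 of 15 in SCDi reached 50 CPM in CD8 T cells alone.

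Members of the interferon and immediate early lists past the fold were all lower in SCDi NK cells, where 3.57% of all genes were. Among genes at 50 CPM or more in both libraries, 4 of 18 type I interferon genes were higher and 2 were past the fold downward. At that level 3 of 4 guanylate-binding and interferon gamma response genes and 9 of 15 immediate early genes were higher, none past the fold. Of all 3240 genes at that level 1520 were higher. Of 22 measured type I interferon genes 6 were higher, with none past 1.5-fold upward and 3 downward. Isg15, a ubiquitin-like interferon product, fell from 281 to 179 CPM (-0.65) and Ifi27l2a from 187 to 115 (-0.71). Slfn5 fell from 77.2 to 33.2 (-1.21), with 43 of 129 vehicle UMIs in 1 cell, and reached 50 CPM in vehicle alone. When cells were gated on UMIs thinned to 5000, Isg15 was at 0.14 and Ifi27l2a at 0.58, the opposite direction, and Slfn5 at -0.29. Of 10 measured guanylate-binding and interferon gamma response genes, 2 were lower past the fold, 5 reached 50 CPM in vehicle alone, and the median was -0.12, which was 0.19 with the class II-rich cells left out. Class I genes, which shield cells from NK attack, were level: 10 of 17 were higher and none passed the fold, with a median of 0.04. In CD8 T cells 0 of 17 were higher, with a median of -0.26. Of 18 immediate early genes none was past the fold upward and 3 were downward, all of which reached 50 CPM in vehicle alone, namely Hspa1a and Hspa1b, heat shock genes read in 4 vehicle and 2 SCDi cells for the former, and Fosb, a subunit of AP-1, which fell from 81.4 to 38.2 CPM (-1.08) with a UMI in 52 and 19 cells. Junb, of the same family, was at 1133 and 1442 CPM (0.35).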

How the data were processed

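Single-cell 3′ RNA libraries of sorted CD45+ cells were used, 1 per treatment, of 4 libraries in the series. The values are UMI counts per gene and barcode, deposited by the authors as filtered matrices of 32285 genes. Cell Ranger 7.1.0 and mm10 are named in the submitters' processing notes and Seurat 4.1.1 in the labels' protocol, while for the annotation and intron counting the sources used here give nothing.

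Raw counts were filtered, gated and summed per class in Python 3.11.15 with numpy 2.4.6, scipy 1.17.1 and pandas 2.3.3. CPM is per 1000000 UMIs of the class. Log2 ratios had 0.5 counts added, with exact conditional binomial intervals. Intervals of shares were Clopper-Pearson, and of differences of shares Newcombe. Thinning drew a fixed number of UMIs per cell without replacement, and cells with fewer UMIs were left out. Genes needed 50 CPM in either group. Doublets were not removed in the values given. As an alternative the barcodes with the highest simulated-doublet scores, 387 in vehicle and 333 in SCDi, were left out, among them 1 and 0 NK cells. Genes were named by the 12 highest lower bounds and 12 lowest upper bounds of the interval, with a UMI in at least 10% of cells, plus gate genes and list members. Members and lists were chosen with earlier results of these data known. The log2 ratio and its interval were tested on simulated counts with known folds, drawn without spread between cells. The other steps were not tested on simulated data.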

Additional observations from a re-analysis of the deposited data

Results flagged for a closer look

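Ccr2, a chemokine receptor, moved past 1.5-fold in opposite directions in NK cells and CD8 T cells between vehicle and SCDi, with log2 ratios of -0.59 and 1.03. Nolc1, a nucleolar protein of ribosome production, had -0.72 in NK cells and 0.92 in CD8 T cells. The NK value of Nolc1 was -0.08 without the Gzmc-rich cells, and among NK cells Nolc1 reached 50 CPM in vehicle alone. The differences between the cell types were not tested, since each value is a single library's sum.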

How the results depend on the processing

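NK share, NK share of NK plus CD8 T cells and the share of Gzmc-rich cells moved by less than their intervals in the alternatives run. Counts of genes past the fold moved. For SCDi over vehicle in NK cells (74 higher, 134 lower) they were 125 and 214 when CPM was averaged over cells, 294 and 379 at 20 CPM, 12 and 45 at 100 CPM, and 123 and 224 without Mki67 or Top2a cells. For NK over CD8 T cells in vehicle (409 and 209) they were 716 and 481 at 20 CPM, 258 and 108 at 100 CPM, and 217 higher with gates on thinned UMIs. In SCDi (544 and 380) they were 949 and 737 at 20 CPM, 319 and 192 at 100 CPM, 250 lower without Mki67 or Top2a cells and 240 lower without the deepest cells.

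Log2 ratios that changed direction in NK cells follow, and the cause was not tested. With 2 gate genes sufficing, Cd74 was 0.79, Cd86 0.39, H2-Aa 0.65, H2-Ab1 0.72, H2-Eb1 0.76, Ifi27l2a 0.54 and Slc8a1 0.23. With at most 1 myeloid UMI, Cd86 was 0.24, H2-Aa 0.073, H2-Eb1 0.025 and Plxdc2 -0.67. With gates on UMIs thinned to 5000, Cd74 was 0.077, Cd86 0.28, H2-Aa 0.062, H2-Eb1 0.057, Ifi27l2a 0.58, Isg15 0.14, Spp1 0.76, C1qb -0.25, C1qc -0.53, the lipid uptake median 0.18, the ATF4 median 0.12 and vehicle NK over CD8 Ccl4 -0.39. The guanylate-binding list median was 0.19 with 4 gate genes, 0.28 with at most 1 myeloid UMI and 0.24 at 100 CPM, and the SCDi NK over CD8 cytokine median -0.12 at 20 CPM. Without Mki67 or Top2a cells Gzmd was 2.88 and Gzmf -1.21. Among alternatives chosen after seeing the data, leaving out class II-rich cells gave 0.19 for the guanylate-binding median, 0.17 for Cd86 and 0.13 for H2-Eb1; leaving out each gene's highest cell gave 0.19 for that median; leaving out the deepest cells gave -0.031 for Ly86 and -0.36 for Plxdc2. Leaving out Gzmc-rich cells gave -0.63 for the G2 and M median, 0.64 for Spp1, and -0.60 and -3.24 for NK over CD8 Gzmc in vehicle and SCDi. The number of NK cells limits genes under 50 CPM.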
